A study of Mus musculus with 9 samples.

Results

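The comparison set muscle RNA of mice on a high-fat diet alone against the mean of 2 reference groups, a control diet and the same high-fat diet with L-carnitine. It looked for features that were highest or lowest on the unsupplemented high-fat diet. Members were chosen by the treatment label, and all 9 libraries of the series entered, 3 per group, with a weight of 1 for the high-fat diet and of -0.5 for each reference group. All mice were wild-type C57BL/6J, a common inbred strain, assigned at 9 weeks of age, acclimatised for 2 weeks, fed for 8 weeks and fasted for 6 h before collection. The control diet gave 10% of its energy as fat and the high-fat diet 60%. The carnitine group drank L-carnitine at 100 mg/kg/day on the high-fat diet. The labels name neither the muscle nor a separate mouse for each library, so the spread that p-values rest on is that among these libraries and may be technical.

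Skeletal muscle burns both glucose and fatty acids. A high-fat diet raises the supply of long-chain fatty acids, which cross into mitochondria as esters of L-carnitine. The sarcomere, the contractile unit, is anchored at the Z-disc, where filamin, α-actinin and their partners bear load and where chaperones such as BAG3 clear damaged proteins. Muscle protein mass depends on translation, which 4E-BP1 restrains, and on breakdown through ubiquitin ligases such as MuRF1 (Trim63).

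Counts per library totalled 2315985 to 3773649, and 7523 of 19335 features had enough counts to be tested. Of all counts, 84.5% lay on features sharing exon sequence with a gene of the other strand, and 12.1% on features without an opposite-strand gene. The most counted feature was Rabep2, opposite the calcium pump gene Atp2a1, with 16.6% of counts. Next came A930016O22Rik, opposite Ckm, with 13.1%, and Ube2c, opposite Tnnc2, with 9.47%. The kit was stranded. The sources used here do not say how strand was set in counting. Reads of a gene and of its opposite partner were therefore not told apart here, and levels are those of rows, not of transcripts. Each such feature is named with its partner. The muscle label was checked against 11 muscle fibre markers, all of which were tested. Levels are in CPM, counts scaled by the total over tested features and the TMM factor. The summed level of these markers was 52435 to 69498 CPM on the high-fat diet, 51547 to 79653 on the control diet and 40576 to 42378 with carnitine. Features opposite these markers summed to 276812 to 292181, 312833 to 393757 and 283930 to 403913 CPM in the same order.

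On the high-fat diet alone, the long non-coding feature Gm45822 rose and Zfp142, which encodes a zinc finger protein and lies opposite Plcd4, a phospholipase C gene, fell. These were the 2 features past an adjusted p of 0.05 in edgeR's quasi-likelihood test with Benjamini-Hochberg adjustment, 0.0266% of those tested, with 0.0133% in each direction. Each call was lost in 11 of 20 alternative analyses. Neither passed when any 1 high-fat diet library, control 2, control 3 or carnitine 2 was left out, and Gm45822 also did not pass without control 1, while the direction stayed. Without adjustment, p was below 0.05 for 297 higher features (3.95%) and 344 lower features (4.57%), together 8.52%. All 3 high-fat diet libraries lay above all 6 others for 147 features (1.95%) and below them for 139 (1.85%). A stricter question is whether the high-fat diet differed from each reference group separately and in the same direction. No feature passed edgeR's test for this (0%), while 46 were higher (0.611%) and 90 lower (1.2%) at an unadjusted p below 0.05. Neither DESeq2 nor limma-voom called any feature in this stricter comparison.

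Gm45822 (chr8:75750725-75760569, minus strand, GRCm39) shares exon sequence with Tom1, an endosomal sorting gene, and with Hmgxb4, whose row had 34 counts over all libraries and was not tested. Its TMM-normalised level was 43.3, 35.5 and 54.6 CPM in the high-fat diet libraries. The control libraries held 13.5, 16.6 and 17.4 CPM, and the carnitine libraries 12.5, 13.7 and 19.2 CPM. Every high-fat diet library was thus above every other library. The log2 fold change was 1.52 (SE 0.28), with an adjusted p of 0.0400 by edgeR's quasi-likelihood test. Set against each reference group it was 1.48 against control and 1.55 against carnitine. Tom1 itself had a log2 fold change of 1.21 ± 0.57 (SE), at an edgeR adjusted p of 0.572, from levels of 5.32 to 7.80 CPM on the high-fat diet.

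Zfp142 (chr1:74604286-74627405, minus strand, GRCm39) stood at 57.1, 40.4 and 50.5 CPM on the high-fat diet. The control libraries held 136, 159 and 164 CPM. The carnitine libraries were more spread, at 76.6, 208 and 113 CPM, and still did not overlap the high-fat diet. The log2 fold change was -1.53 ± 0.27 (SE), at an edgeR adjusted p of 0.0400. Against control alone it was -1.64 (adjusted p = 0.0258 by edgeR) and against carnitine alone -1.43 (adjusted p = 0.0655). The row of Plcd4 gave -0.43 (SE 0.24), with high-fat diet libraries at 36.2 to 49.0 CPM overlapping the others.

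The naming rule filled each direction to 12 features with those of smallest p, so 11 of the 12 in each direction did not pass the adjusted threshold. In 9 of the 12 higher features every high-fat diet library was above all 6 others. This held for 1.95% of all features and 2.81% of rows without an opposite gene. The 12 were chosen by small p, so the 9 are a description. Flnc, filamin C, which cross-links actin at the Z-disc, was at 488, 372 and 295 CPM on the high-fat diet. Control libraries held 243, 213 and 302 CPM and carnitine libraries 177, 135 and 159 CPM. High-fat diet library 3 was below control library 3, so these groups overlapped. The log2 fold change was 0.95 ± 0.20 (SE), at an edgeR adjusted p of 0.0880. Flnc was higher than with carnitine (1.29, adjusted p = 0.0256 by edgeR), while the value against control was 0.61 (adjusted p = 0.582).

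**Figure D1:**
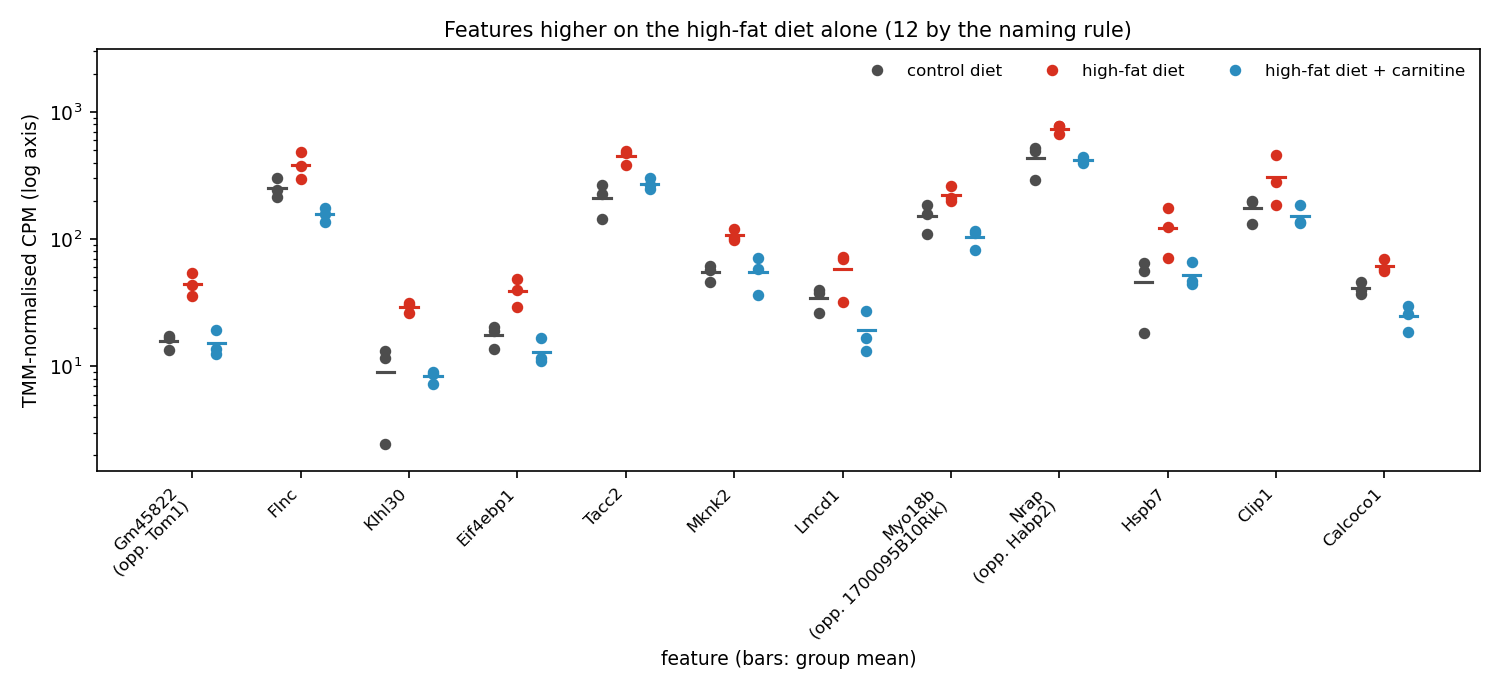
Levels of the 12 features with the smallest p among those higher on the high-fat diet, as TMM-normalised CPM on a log axis, with a point per library and a bar at each group mean. Gm45822, the only feature of these past the adjusted threshold, shows 3 high-fat diet points at 35.5 to 54.6 CPM above all others, and Flnc, Lmcd1 and Clip1 show overlapping groups.

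Nrap, a nebulin-related protein of assembling myofibrils, was counted in a row that shares exon sequence with Habp2 and Gm17197. It stood at 775, 777 and 664 CPM on the high-fat diet. Control libraries held 525, 290 and 491 CPM and carnitine libraries 439, 396 and 419 CPM, with no overlap. Its log2 fold change was 0.79 ± 0.20 (SE), at an edgeR adjusted p of 0.190. Hspb7, a small heat shock protein of muscle, was at 124, 175 and 70.6 CPM on the high-fat diet. The 6 other libraries lay between 18.3 and 66.4 CPM, so the lowest high-fat diet library was close to the highest of the rest. Its log2 fold change was 1.32 (SE 0.32). Tacc2, a coiled-coil gene, and Myo18b, an unconventional myosin needed for sarcomere assembly that lies opposite 1700095B10Rik, had log2 fold changes of 0.91 (SE 0.20) and 0.84 (SE 0.21), both without overlap.

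Eif4ebp1 encodes 4E-BP1, which holds back cap-dependent translation until it is phosphorylated. Its level was 40.1, 29.2 and 49.0 CPM on the high-fat diet. Control libraries held 20.4, 19.1 and 13.8 CPM and carnitine libraries 11.0, 16.7 and 11.5 CPM. The groups did not overlap, and the log2 fold change was 1.37 ± 0.29 (SE), at an edgeR adjusted p of 0.0880. Mknk2, a kinase that phosphorylates the cap-binding protein eIF4E, was at 121, 101 and 99.2 CPM on the high-fat diet. It was at 46.0 to 61.5 CPM on the control diet and 36.5 to 70.9 CPM with carnitine, again with no overlap. The log2 fold change was 0.95 (SE 0.23), and it was nearly equal against control (0.96) and carnitine (0.95).

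Klhl30, a kelch family gene, was at 30.1, 26.2 and 31.2 CPM on the high-fat diet. Control libraries held 11.7, 2.45 and 13.2 CPM, and carnitine libraries 9.10, 7.28 and 8.65 CPM. Its log2 fold change of 1.72 ± 0.37 (SE), at an edgeR adjusted p of 0.0880, was the largest of the 12 higher features. Calcoco1, an autophagy receptor, was at 55.9 to 70.2 CPM on the high-fat diet, above all others, with a log2 fold change of 0.94 (SE 0.24). Lmcd1, a LIM-domain regulator of calcineurin signalling, and Clip1, a microtubule plus-end protein, had log2 fold changes of 1.17 (SE 0.29) and 0.92 (SE 0.23), and both overlapped with other libraries. In Lmcd1 the low library was high-fat diet 3, at 32.3 CPM against 72.0 and 69.4 CPM. In Clip1 that library was the high one, at 455 CPM against 284 and 186 CPM.

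For 4 of the 12 higher features the reference groups themselves differed at an unadjusted p below 0.05, with carnitine below control. These were Flnc, Lmcd1, Myo18b and Calcoco1. Their fold changes against carnitine were therefore the larger part of the mean. Among the 12 lower features named below, 1 (Sphk2) had such a difference, with carnitine above control. The share of all features with such a difference was not counted, so these numbers are a description. The 2 pairwise comparisons share the high-fat diet libraries, so their likeness is no separate evidence.

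**Figure D2:**
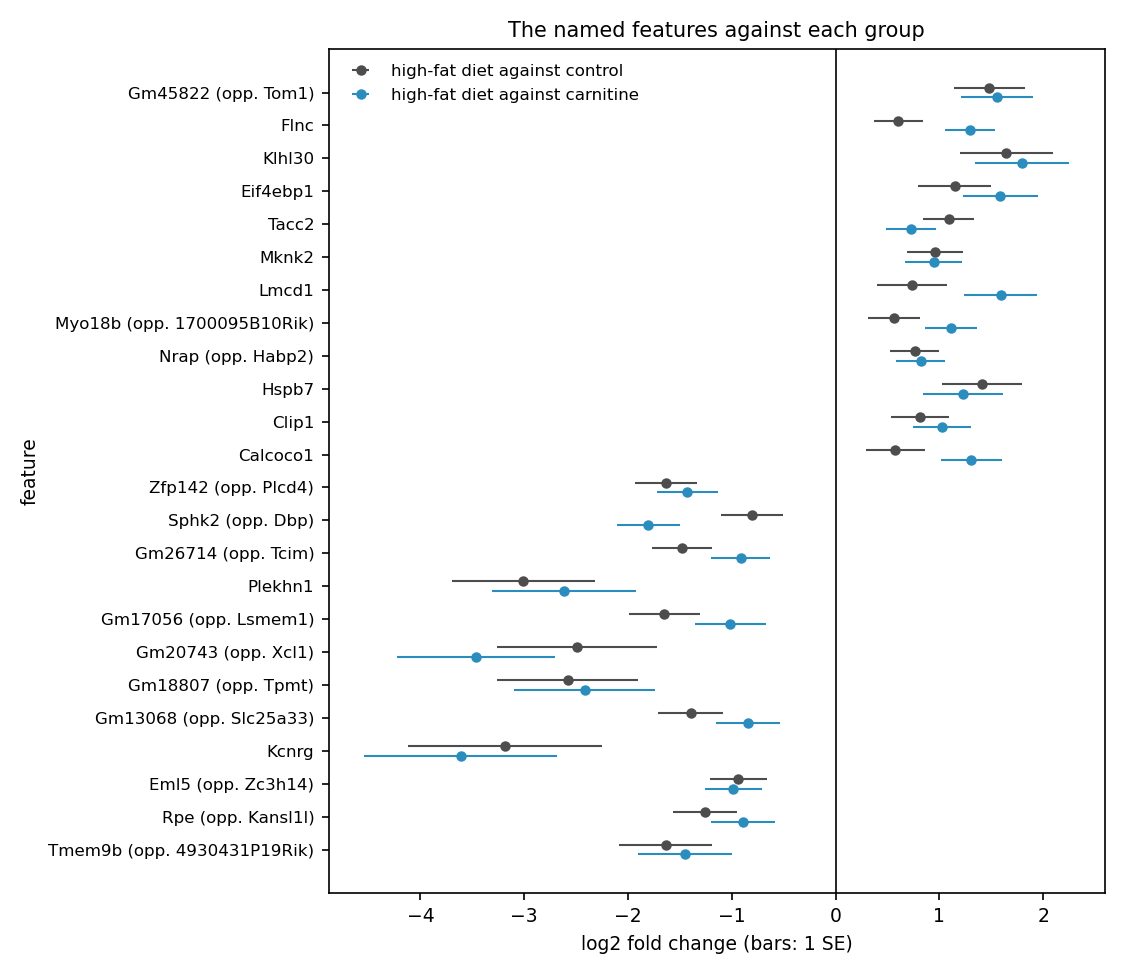
Log2 fold changes of the 24 named features on the high-fat diet, against control (grey) and against carnitine (blue), with bars of 1 SE. All 24 lie on the same side of 0 in both, and Flnc, at 0.61 and 1.29, is among those with a wide gap between them.

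Promoter windows were looked up for 22 higher features, chosen by their values: the 12 named, the Z-disc genes with an unadjusted p below 0.05, and Trim63. RefSeq windows on GRCm38.p6, 250 bases before to 50 after a start, were found for 13 of them, 17 windows in all. Motifs were searched on both strands: the heat shock element (TTCNNGAA or GAANNTTC), M-CAT (CATTCC), the TATA box (TATAAA), the E-box (CANNTG), TGATGNAA, the CArG box and the MEF2 site. The CArG box, bound by serum response factor, was in 4 of 17 windows, of 3 genes, against 1.63% of 32851 windows of the same length. M-CAT, bound by TEAD factors, was in 7 windows of 5 genes, against 14.7% of all. The heat shock element was in 2 windows against 15.1% of all, the TATA box in 2 against 13.6% and the E-box in 8 against 72.3%. TGATGNAA and the MEF2 site were in 0 of the 17, against 3.97% and 3.19% of all. The windows of Flnc overlap, as do those of Ldb3, while those of Tacc2 and of Ankrd23 lie apart. The TATA box can lie inside a CArG box, and a match is a description of letters. Shown are the 3 genes with a CArG box, then Hspb7 with M-CAT and Bag3 with a heat shock element, in lower case with CArG, M-CAT and heat shock matches in capitals.
Mknk2, chr10:80676244-80676543, minus strand: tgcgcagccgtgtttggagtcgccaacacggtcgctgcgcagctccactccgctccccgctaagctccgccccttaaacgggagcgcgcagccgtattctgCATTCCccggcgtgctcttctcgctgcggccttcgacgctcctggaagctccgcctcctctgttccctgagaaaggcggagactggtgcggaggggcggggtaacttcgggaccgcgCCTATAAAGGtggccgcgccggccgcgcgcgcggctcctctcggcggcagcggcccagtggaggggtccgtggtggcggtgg
Lmcd1, chr6:112273508-112273807, plus strand: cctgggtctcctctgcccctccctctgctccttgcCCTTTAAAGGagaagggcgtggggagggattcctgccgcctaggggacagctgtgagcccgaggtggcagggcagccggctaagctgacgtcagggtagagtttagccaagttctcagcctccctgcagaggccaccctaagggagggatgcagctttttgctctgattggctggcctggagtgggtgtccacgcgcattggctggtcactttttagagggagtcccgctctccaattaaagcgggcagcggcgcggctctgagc
Ldb3, chr14:34588632-34588931, minus strand: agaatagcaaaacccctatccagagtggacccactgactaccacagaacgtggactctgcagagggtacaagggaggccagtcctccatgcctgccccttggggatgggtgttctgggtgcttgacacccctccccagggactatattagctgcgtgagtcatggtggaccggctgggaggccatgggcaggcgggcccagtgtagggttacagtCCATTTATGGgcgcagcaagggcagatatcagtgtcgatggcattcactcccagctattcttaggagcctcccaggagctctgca
Hspb7, chr4:141420529-141420828, plus strand: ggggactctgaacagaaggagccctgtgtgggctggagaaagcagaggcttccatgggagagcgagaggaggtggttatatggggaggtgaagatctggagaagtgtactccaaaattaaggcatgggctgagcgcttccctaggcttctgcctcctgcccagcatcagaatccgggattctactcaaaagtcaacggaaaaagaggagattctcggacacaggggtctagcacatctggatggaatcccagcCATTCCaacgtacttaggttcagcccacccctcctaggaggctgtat
Bag3, chr7:128523333-128523632, plus strand: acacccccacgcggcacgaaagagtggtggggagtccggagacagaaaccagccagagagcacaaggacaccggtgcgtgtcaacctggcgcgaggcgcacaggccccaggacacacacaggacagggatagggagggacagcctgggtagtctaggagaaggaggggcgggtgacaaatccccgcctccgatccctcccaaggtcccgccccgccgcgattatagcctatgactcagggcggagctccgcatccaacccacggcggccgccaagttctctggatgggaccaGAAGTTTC

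All 12 named lower features had every high-fat diet library below all 6 others, as in 1.85% of all features and 2.78% of the exon-sharing class. These 12 were chosen by small p, so that count is a description. Of them, 10 share exon sequence with an opposite gene, as do 54.1% of tested features. Zfp142 fell, and the other 11 did not pass the adjusted threshold. Sphk2, a sphingosine kinase gene whose row shares exon sequence with the clock output gene Dbp and with Rpl18, was at 42.2, 45.3 and 42.0 CPM on the high-fat diet. Control libraries held 85.4, 71.5 and 69.4 CPM and carnitine libraries 105, 245 and 102 CPM. Its log2 fold change was -1.30 ± 0.27 (SE), at an edgeR adjusted p of 0.0880. Against carnitine it was -1.80 (adjusted p = 0.00846 by edgeR), and against control -0.80 (adjusted p = 0.494). The row of Dbp gave -0.17 (SE 0.39).

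Gm26714, opposite Tcim, was at 54.3, 72.6 and 52.7 CPM on the high-fat diet. Control libraries held 168, 228 and 108 CPM and carnitine libraries 145, 115 and 78.8 CPM. The log2 fold change was -1.20 ± 0.26 (SE), at an edgeR adjusted p of 0.0880, and against control it was -1.48 (adjusted p = 0.0392). Slc25a33, a mitochondrial nucleotide carrier, lies opposite Gm13068, which was at 55.3 to 90.6 CPM on the high-fat diet and 99.7 to 308 CPM elsewhere. Gm17056, opposite Lsmem1, had a log2 fold change of -1.33 (SE 0.31), from 10.0 to 13.7 CPM on the high-fat diet. Eml5, opposite Zc3h14, and Rpe, a pentose phosphate enzyme gene opposite Kansl1l, gave -0.96 (SE 0.25) and -1.07 (SE 0.28).

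The largest fold changes among the lower features came from few counts. Plekhn1 had 2, 4 and 6 counts in the high-fat diet libraries, against 34, 31 and 12 on the control diet and 17, 28 and 11 with carnitine. Its log2 fold change was -2.81 (SE 0.64). Kcnrg, a potassium channel regulator, had 1, 4 and 0 counts on the high-fat diet and a fitted value of -3.40 (SE 0.87). Gm20743, opposite the chemokine gene Xcl1, had 3, 2 and 3 counts there, and Gm18807, opposite Tpmt, had 2, 2 and 11. The limit for a count of 0 is 3 counts per library, equal to 0.696 to 1.47 CPM, so the size of these 4 differences is poorly fixed. Tmem9b, a lysosomal membrane protein gene opposite 4930431P19Rik, was at 4.09 to 6.38 CPM on the high-fat diet and 10.6 to 24.5 CPM elsewhere.

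**Figure D3:**
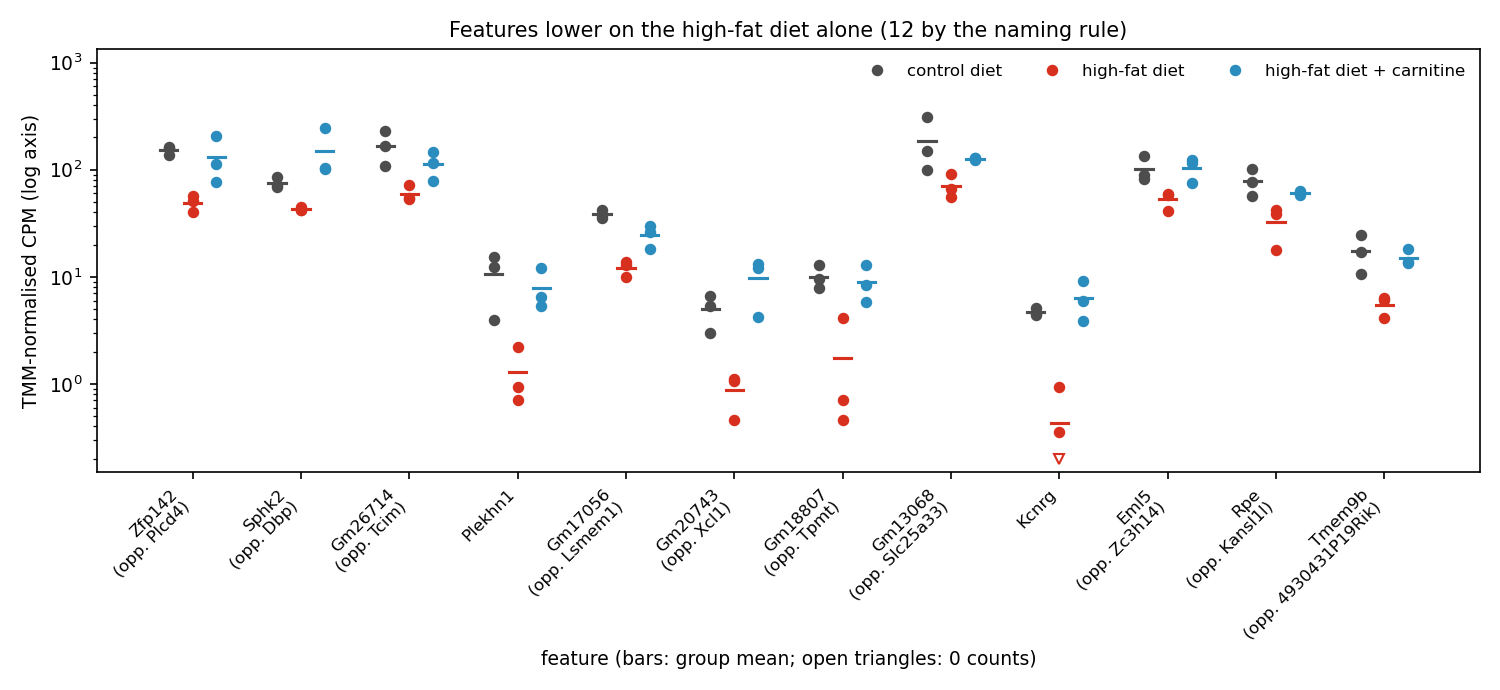
Levels of the 12 features with the smallest p among those lower on the high-fat diet, as TMM-normalised CPM on a log axis, with a point per library, a bar at each group mean and an open triangle for 0 counts. Zfp142 sits at 40.4 to 57.1 CPM on the high-fat diet, below all other libraries, and Kcnrg, Gm20743 and Gm18807 lie near the floor of a few counts.

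Genes of 24 pathway lists were then described. Of 575 distinct members tested, none passed edgeR's adjusted threshold, against 0.0266% of all features. At an unadjusted p below 0.05, 71 members (12.3%) were higher and 10 (1.74%) lower, against 3.95% and 4.57% of all features. Among rows without an opposite gene, 158 of 2705 were higher and 46 lower. The smallest adjusted p of any member was 0.0880. The median log2 fold change lay above that of all features (0.03) in 21 of the 24 lists. It also moved with the strand class of the row. Rows without an opposite gene had a median of 0.23, with 69.8% positive. Rows sharing exon sequence on the other strand had a median of -0.11, with 39.3% positive, and rows overlapped on the other strand outside exons had 0.15. All high-fat diet libraries were above the rest for 2.81% of the first class, 1.23% of the second and 2.92% of the last, and below the rest for 0.518%, 2.78% and 1.67%. Among the features opposite to list members, the list median was below that of all features in 21 of 24 lists. These features all share exon sequence, the class with the median of -0.11, so that count is no result about the pathways. The share of counts on features with no opposite gene was 13.0% ± 1.21 (SD, n = 3) on the high-fat diet, 12.3% ± 2.53 on the control diet and 10.4% ± 2.39 with carnitine. The difference of 1.69 points had p = 0.357 in a two-sided exact permutation test over 84 splits, whose smallest possible p is 0.0119. The part of this share in the lists' values was not tested, so the number of members above the median of their own class is given beside each list described.

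**Figure D4:**
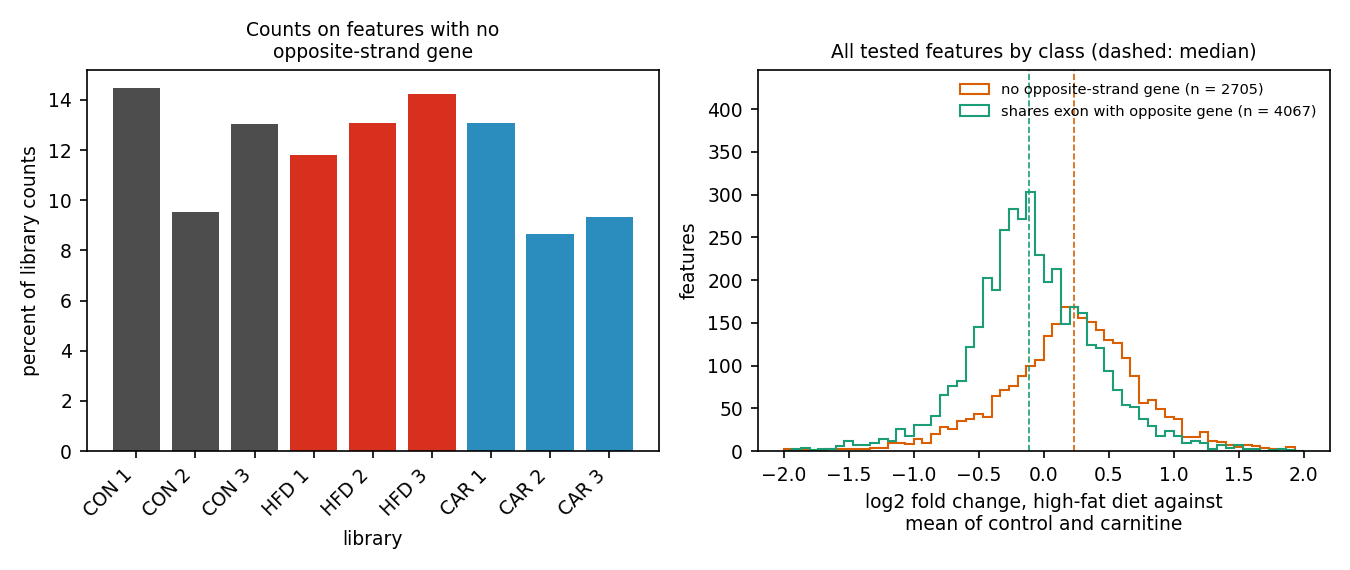
Left, percent of each library's counts on features with no opposite-strand gene, in grey for control, red for the high-fat diet and blue for carnitine. Right, number of features by log2 fold change for features with no opposite gene (orange, median 0.23) and features sharing exon sequence with an opposite gene (green, median -0.11), which are offset from each other.

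The Z-disc and mechanical stress list had a positive log2 fold change in 29 of 29 members, against 52.5% of all features, with a median of 0.45. It lay above the class median in 25 of the 29. Of these, 12 were higher at an unadjusted p below 0.05, against 3.95% of all features. In 5 all high-fat diet libraries were above the rest, against 1.95% of all features and 2.81% of rows without an opposite gene. No member passed edgeR's adjusted threshold. DESeq2 called 3 members, of its 21 calls among all 7523 features, and limma-voom called 2, of its 8. Against control 22 of 29 members were positive (median 0.25), and against carnitine 29 of 29 (0.68). The list was chosen with earlier results of these data known, so its counts are a description. Bag3, the cochaperone of Z-disc turnover, was at 62.1, 44.8 and 55.0 CPM on the high-fat diet. Control libraries held 40.5, 27.4 and 27.9 CPM, and the highest carnitine library 28.4 CPM. There was no overlap, and the log2 fold change was 0.97 (SE 0.25). Xirp1 and Actn2, an actin-binding repair protein and the Z-disc α-actinin, had log2 fold changes of 0.96 and 0.80. In both, high-fat diet library 3 (26.0 and 202 CPM) was the low library of its group, and the groups overlapped. Where scaling factors were taken from features with no opposite gene, which moved the median of all features to -0.20, 23 of the 29 stayed positive with a median of 0.21.

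Genes of protein breakdown were mostly positive too. The list of proteasome subunits and atrophy ligases had 28 of 35 members positive, a median of 0.36 and 25 above their class median. In 4 of the 35 all high-fat diet libraries were above the rest and in 1 below, against 1.95% and 1.85% of all features. Without the 3 libraries of lowest share on rows with no opposite gene, 22 of 35 were positive with a median of 0.24. Trim63, which encodes the ubiquitin ligase MuRF1, was at 332, 245 and 630 CPM on the high-fat diet. Control libraries held 205, 162 and 204 CPM, and carnitine libraries 322, 167 and 201 CPM, so that high-fat diet library 2 lay below the highest carnitine library. The log2 fold change was 0.94 ± 0.25 (SE), at an edgeR adjusted p of 0.238. Fbxo40, a ligase for IRS1, was at 41.1 to 49.0 CPM on the high-fat diet and 12.5 to 38.5 CPM in the others. Ubb, a polyubiquitin gene, was at 221 to 302 CPM against 123 to 201 CPM. The autophagy list had 23 of 30 members positive, a median of 0.39 and 22 above their class median. Its ER-phagy receptor Retreg1 gave 0.93 (SE 0.26). Tecpr2, a gene of autophagosome formation, gave -0.82 (SE 0.23), and it was lower than control (-1.39, adjusted p = 0.0258 by edgeR) but not past the threshold against carnitine (-0.25).

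Genes of fat use were positive in most rows of the PPAR and fatty acid oxidation lists. PPAR targets, which fatty acids induce, had 20 of 22 members positive, a median of 0.40 and 17 above their class median. Fatty acid oxidation had 22 of 23 positive, a median of 0.33 and 16 above their class median. The lipid droplet list had 7 of 12 positive, against 52.5% of all features, a median of 0.33 and 8 above. PPAR targets had a median of 0.57 against control and 0.26 against carnitine, and fatty acid oxidation 0.33 and 0.26. Summed PPAR targets were 1294 to 1661 CPM on the high-fat diet, 785 to 1103 on the control diet and 709 to 1630 with carnitine. Fatty acid oxidation genes summed to 628 to 892, 384 to 584 and 397 to 927 CPM in the same order. Without high-fat diet library 2 the median was 0.25 for PPAR targets, 0.16 for fatty acid oxidation (17 of 23 positive) and -0.10 for lipid droplets (7 of 15). Pdk4, the kinase that shuts pyruvate dehydrogenase when fat is burned, was at 504, 534 and 546 CPM on the high-fat diet. Control libraries held 405, 232 and 393 CPM and carnitine libraries 426, 185 and 262 CPM. There was no overlap, and the log2 fold change was 0.74 ± 0.23 (SE), at an edgeR adjusted p of 0.302. Lpin1, a phosphatidate phosphatase and PPAR coactivator, was at 81.6, 70.8 and 109 CPM on the high-fat diet and 27.4 to 58.0 CPM in the others. Its log2 fold change was 0.96 ± 0.25 (SE), at an edgeR adjusted p of 0.190. Plin5, a droplet coat protein of oxidative muscle, was at 12.1 to 14.2 CPM against 3.43 to 9.49 CPM. Acot2, a mitochondrial acyl-CoA thioesterase, gave 1.81 (SE 0.52) with overlap, from 14.9 to 32.5 CPM on the high-fat diet.

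Energy genes came next. Members of the pyruvate dehydrogenase and tricarboxylic acid cycle list were positive in 27 of 29, with a median of 0.35 and 19 above their class median. The respiratory chain had 51 of 56 positive and a median of 0.32, and 43 above their class median. Without high-fat diet library 2 the medians were 0.15 (20 of 29) and 0.13 (41 of 56). Without the 3 libraries of lowest share on rows with no opposite gene they were 0.02 (15 of 29) and 0.09 (35 of 56), and that of fatty acid oxidation was 0.14 (15 of 24). Ndufa7, a complex I subunit, had no overlap, at 31.9 to 41.6 CPM on the high-fat diet and 9.13 to 24.1 CPM elsewhere. The features opposite respiratory chain genes went the other way, with 2 of 19 positive, a median of -0.25 and 4 above their class median. They all belong to the exon-sharing class, of which 39.3% were positive with a median of -0.11. Glycolysis had 24 of 29 positive and a median of 0.18, with 17 above their class median. The median was -0.08 against control and 0.43 against carnitine. Fast fibre proteins had 19 of 24 positive with a median of 0.16, of which 12 lay above the class median. They were positive in 5 of 24 against control (median -0.21) and in 24 of 24 against carnitine (0.56). The features opposite them, also of the exon-sharing class, had 1 of 8 positive and 1 above the class median. Slow fibre proteins had 11 of 15 positive with a median of 0.41 and 11 above their class median, and without high-fat diet library 2 the median was 0.03. Ribosomal proteins had 57 of 73 positive with a median of 0.21, and 39 lay above their class median. Without high-fat diet library 2, 39 of 73 were positive with a median of 0.10. With all libraries, ribosomal proteins were positive in 29 of 73 against control (-0.08) and in 63 of 73 against carnitine (0.51). With scaling on features without an opposite gene, the median turned below 0 in 9 of the 24 lists. Among them were fast fibre proteins (7 of 24 positive, -0.05), glycolysis (14 of 29, -0.02) and ribosomal proteins (31 of 73, -0.05). Calcium handling was also among them (12 of 25, -0.04, from 21 of 25 and 0.20). With the main scaling, calcium handling was positive in 10 of 25 against control (-0.03) and in 20 of 25 against carnitine (0.56).

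**Figure D5:**
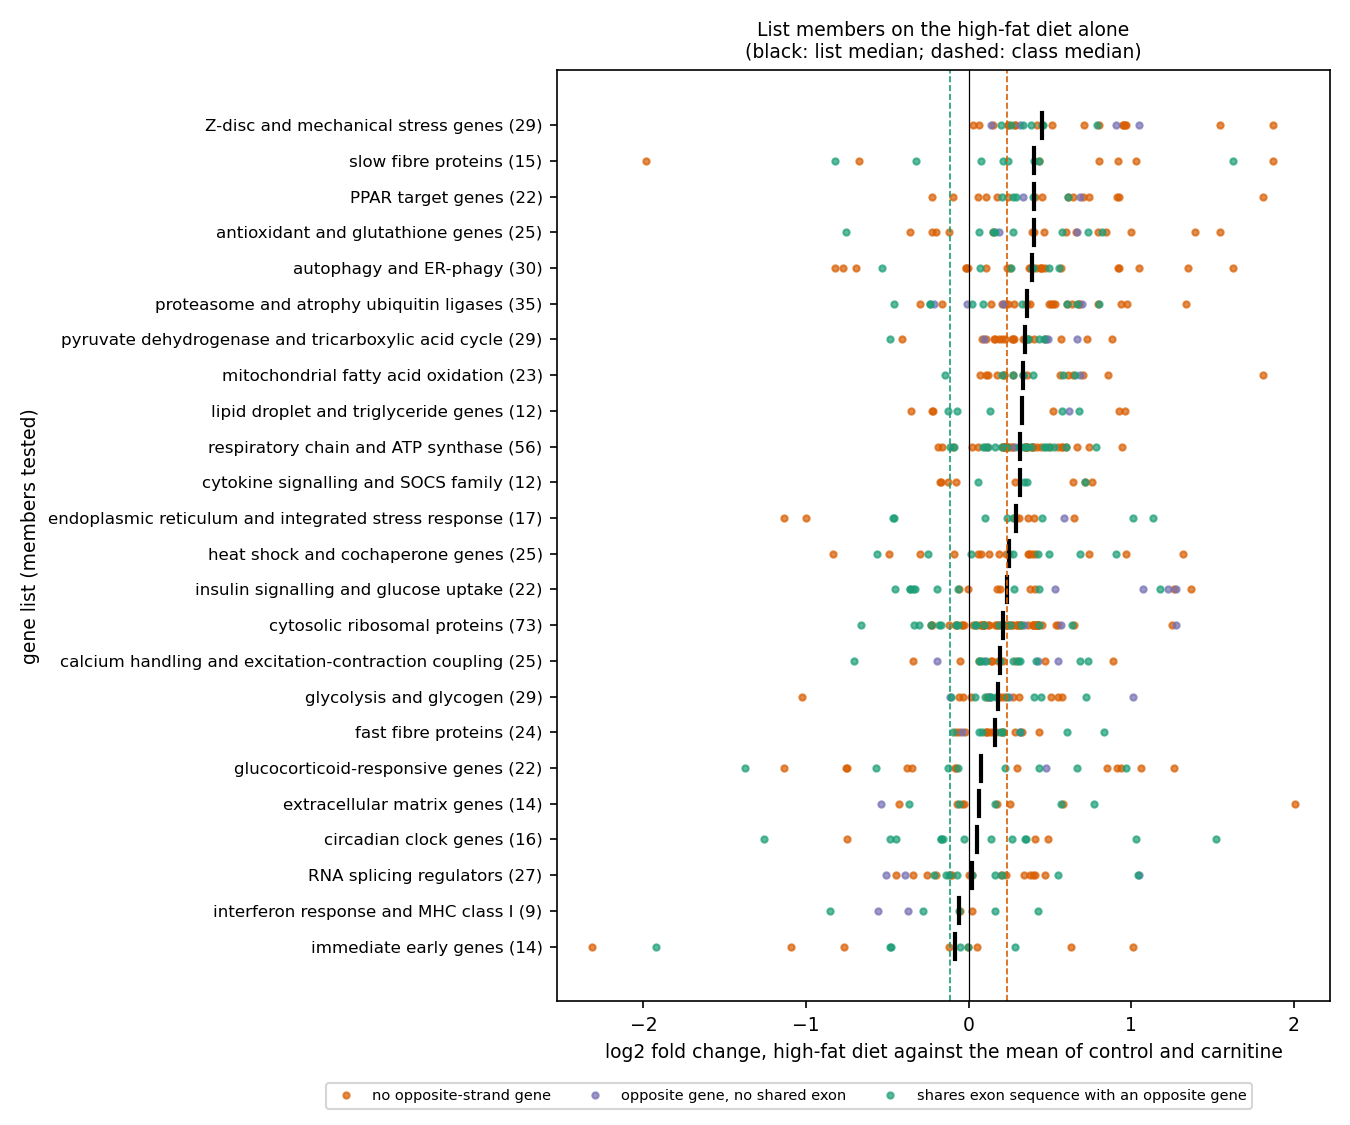
Log2 fold change of each tested member of the 24 lists on the high-fat diet against the mean of both reference groups, with lists ordered by their median (black bar). Dashed lines mark the class medians of 0.23 and -0.11, and the Z-disc list at the top has all 29 members above 0.

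Stress and signalling lists were mixed. Heat shock and cochaperone genes had 19 of 25 positive with a median of 0.25, and 14 above their class median. Their median was -0.03 against control (11 of 25 positive) and 0.40 against carnitine (19 of 25). Antioxidant genes had 20 of 25 positive with a median of 0.40 and 19 above their class median. Gss, glutathione synthetase, was at 105 to 130 CPM against 139 to 239 CPM, in a row that shares exon sequence with Acss2. Insulin signalling had 13 of 22 positive (12 above their class median), the extracellular matrix 7 of 14 (7 above) and the clock 8 of 16 (9 above). Splicing regulators had 15 of 27 positive (12 above) and glucocorticoid-responsive genes 11 of 22 (12 above). The interferon and MHC class I list had 3 of 9 positive (3 above), the endoplasmic reticulum stress list 13 of 17 (13 above) and the cytokine list 8 of 12 (8 above). Without high-fat diet library 3 the median was below 0 for the clock (-0.12) and for glucocorticoid-responsive genes (-0.24).

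Immediate early genes had the lowest median, -0.08, with 10 of 14 negative against 47.5% of all features. Of the 14, 3 were lower at an unadjusted p below 0.05 by edgeR, against 4.57% of all features. Of the 14, 5 lay above their class median. With library totals 8 of 14 were positive with a median of 0.10, and leaving out a library gave medians from -0.35 (without high-fat diet 3) to -0.01 (without control 2). Ccn2, a matricellular target of YAP and serum response factor, was at 0.709, 1.39 and 3.71 CPM on the high-fat diet. All other libraries lay between 4.75 and 14.2 CPM, and the log2 fold change was -1.92 ± 0.63 (SE), at an edgeR adjusted p of 0.343. Klf2, a flow-induced factor, and Nr4a1, a nuclear receptor, had their larger values against control. Klf2 gave -3.79 against control and -0.84 against carnitine, and Nr4a1 gave -1.92 and -0.27. Ddit4, an inhibitor of mTORC1, likewise gave -2.27 against control and 0.01 against carnitine.

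A contrast with a mean hides genes on which the reference groups part. Gm17041, opposite the cytokine-induced gene Cish, was at 27.3 to 60.6 CPM on the high-fat diet, 12.4 to 15.5 CPM on the control diet and 142 to 537 CPM with carnitine. The high-fat diet was in the middle, and Gm17041 was lower than with carnitine (-3.13 on the log2 scale, adjusted p = 0.00588 by edgeR). The high-fat diet differed from control in 4 features, all lower (0.0532%), and from carnitine in 4, of which 1 was higher (0.0133%) and 3 lower (0.0399%). Carnitine and control differed in 32 features (0.425%).

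Markers of other cell types were low, and differences in cell number and in RNA per cell cannot be told apart in bulk tissue. Summed endothelial markers were 149 to 219 CPM on the high-fat diet, 111 to 141 on the control diet and 107 to 396 with carnitine. Of 12 tested, 9 were positive and 7 lay above their class median. Against control 10 were positive (median 0.55), and against carnitine 4 (median -0.36). Satellite cell markers summed to 16.7 to 28.2, 19.6 to 26.0 and 3.43 to 11.8 CPM on the high-fat diet, control diet and carnitine. Of these 8 markers 3 were tested, and Itga7 was the most counted. Schwann and nerve markers, of which Cnp was the most counted, summed to 185 to 227, 214 to 261 and 184 to 241 CPM in that order. Macrophage markers, of which Csf1r was the most counted, summed to 107 to 144, 112 to 142 and 143 to 175 CPM. Erythroid markers summed to 3.55 to 6.27 CPM, 8.22 to 14.6 CPM and 3.85 to 15.4 CPM. Neutrophil markers summed to at most 4.40 CPM in any library. Adipocyte markers summed to 126 to 235 CPM on the high-fat diet, 119 to 253 CPM on the control diet and 109 to 149 CPM with carnitine. Car3, which muscle also expresses, was the most counted of them, and Adipoq, Retn and Adrb3 each had at most 3 counts over all libraries. The part of these cells in the values above was not tested.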

How the data were processed

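Raw counts per gene, as whole numbers, and FPKM values were deposited by the authors. Only the counts were tested. The submitters' processing notes list HTSeq 0.13.5, HISAT2 2.2.0, Bowtie2 2.4.2, Trim Galore 0.6.4 and edgeR, and the builds GRCm39, GRCh38 and Rnor_6.0, with no role given for any. Per the labels' protocols, the library kit was stranded and for mRNA. Counts were fitted with edgeR 4.0.16 in R 4.3.3 (TMM scaling, default expression filter, robust quasi-likelihood F-test) in 1 model of 3 groups without covariates. Benjamini-Hochberg adjustment was over the 7523 features tested, and an adjusted p below 0.05 counted as changed. SE was computed as the size of the log2 fold change over the root of the F statistic. DESeq2 1.42.0, limma-voom (limma 3.58.1), other scalings, filters, a block and left-out libraries were alternatives. The scripts were tested on simulated data. Opposite-strand overlaps came from GENCODE M21, which uses another build and gave no coordinates. Features named were those past the threshold with a mean CPM of at least 1, filled to 12 per direction by smallest p, with up to 4 members of each list by smallest p. The lists and the comparison were chosen with earlier results of these data known. Floors of 3 counts cover counting error only.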

Additional observations from a re-analysis of the deposited data

How the results depend on the processing

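The 2 features called against the mean of both reference groups became 1 with library totals only, 26 with no filter, 9 with a CPM filter, 21 with DESeq2 and 8 with limma-voom. They became 0 with control and carnitine as 1 group of 6 and with scaling on features with no opposite gene. Both features were among the calls with no filter, the CPM filter, DESeq2 and limma-voom. Leaving out a library gave 0 to 46 calls. Carnitine 1 gave the 46 and carnitine 3 gave 4. High-fat diet 2 gave 1, which was neither of the 2 features, and control 1 gave 2, with Zfp142 but not Gm45822. Leaving out control 2, control 3, high-fat diet 1, high-fat diet 3 or carnitine 2 gave 0. Correlations of same-numbered libraries, taken after removal of group means, ran from -0.16 to 0.14. Such values were not computed for libraries of different numbers, so they cannot decide whether the numbers mark a shared batch. A replicate block gave 0 calls. Features that differed from each reference group numbered 0, with 1 under no filter and 1 under the CPM filter, and 0 to 1 with a library left out.

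Of features at an unadjusted p below 0.05, 297 were higher and 344 lower. With library totals these were 602 and 136, with the median of all features at 0.21. With scaling on features with no opposite gene they were 90 and 712, with that median at -0.20. Chosen after seeing the data, leaving out the 3 libraries with the lowest share of counts on such features (control 2, carnitine 2 and carnitine 3) gave 51 calls, 39 higher and 12 lower, with both main calls among them. It left 1 carnitine library, assumed to vary like the other groups. That share as a covariate gave 0. The causes were not tested. All 24 named features kept their direction in all 20 alternatives. The difference in that share was 1.09 to 2.31 points with a library left out. Depth limits the features with few counts.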
